A study of Mus musculus with 6 samples.

Results

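The genes of the platelet-derived growth factor (PDGF) system were examined in cultured muscle stem cells of Pnpla2PKO and wild-type mice; Pnpla2 is the gene of the lipase that begins the release of fatty acids from lipid droplets. The members were taken by symbol: the ligand genes Pdgfa, Pdgfb, Pdgfc and Pdgfd and the receptor genes Pdgfra and Pdgfrb, 6 of 20588 genes listed, all of them tested. RNA-seq libraries were made from 3 samples labelled Pnpla2PKO (PKO 1, PKO 2 and PKO 3) and 3 labelled WT (WT 1, WT 2 and WT 3), all from C57BL/6NJ mice of 2 months. In both groups, satellite cells purified from hind limb muscle by flow cytometry were expanded for 7 days and then held for 16 h in medium with 2% horse serum, which starts differentiation. Neither the allele nor the promoter behind the knockout is stated in the labels. They also do not tie the libraries to separate mice or dishes, so p-values rest on a spread between libraries that could be technical in part.

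PDGF ligands are secreted dimers. PDGF-A and PDGF-B are made in active form after intracellular processing, whereas PDGF-C and PDGF-D carry a CUB domain that extracellular proteases remove. They bind receptor tyrosine kinases, the alpha receptor (Pdgfra) and the beta receptor (Pdgfrb), which pair, phosphorylate each other and recruit adaptors of the RAS, phosphoinositide 3-kinase and phospholipase C pathways. In skeletal muscle, the alpha receptor is best known as a marker of fibro-adipogenic progenitors, the stromal cells of the tissue, and the beta receptor as a marker of pericytes and other mural and stromal cells.

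Total counts per library were 17237752 to 18839151 in PKO and 15580176 to 18651348 in WT. Pnpla2 was at 8.47, 16.0 and 15.5 CPM (counts scaled to library size with TMM factors) in PKO 1 to PKO 3, against 21.1, 38.5 and 33.7 CPM in WT 1 to WT 3, and so was lower in PKO without being lost (edgeR adjusted p = 0.190, DESeq2 adjusted p = 0.00796). Myogenic markers were abundant throughout: 17 of 18 were tested, and they summed to 21760 to 30740 CPM in PKO and 29140 to 37490 CPM in WT. The libraries of a group were not alike. PKO 2 and PKO 3 stood apart from PKO 1 in stromal genes, and WT 1 stood apart from WT 2 and WT 3 in cell cycle genes, whose summed level (10 genes, chosen after the data were seen) was 277, 270 and 340 CPM in PKO 1 to PKO 3, against 220, 936 and 989 CPM in WT 1 to WT 3. Calls of the members that rest on these libraries are given with and without them.

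The receptors were far higher in PKO 2 and PKO 3 than in any other library, Pdgfb, Pdgfc and Pdgfd were lowest in WT 2 and WT 3, and Pdgfa was nearly level throughout. Pdgfra averaged 67.6 ± 54.2 CPM in PKO and 2.63 ± 0.95 CPM in WT, and Pdgfrb 125 ± 124 CPM in PKO and 6.80 ± 4.46 CPM in WT (SD, n = 3 each). None of the 6 members passed the adjusted p threshold of 0.05 over 14025 genes with edgeR's quasi-likelihood test, by which 0% of all genes were called. With DESeq2, 3 members rose (Pdgfra, Pdgfrb and Pdgfd) and 0 fell, where 4.73% of all genes rose and 0.933% fell. All PKO libraries lay above all WT libraries for those 3 members, as they did for 11.8% of all genes, and lay below them for 0 members, against 9.7% of all genes. At an unadjusted edgeR p under 0.05 the same 3 were higher and 0 lower, against 10.2% and 6.35% of all genes (16.5% in either direction). In all, 5 of 6 members had a log2 fold change above 0, against 48.3% of all genes.

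**Figure D1:**
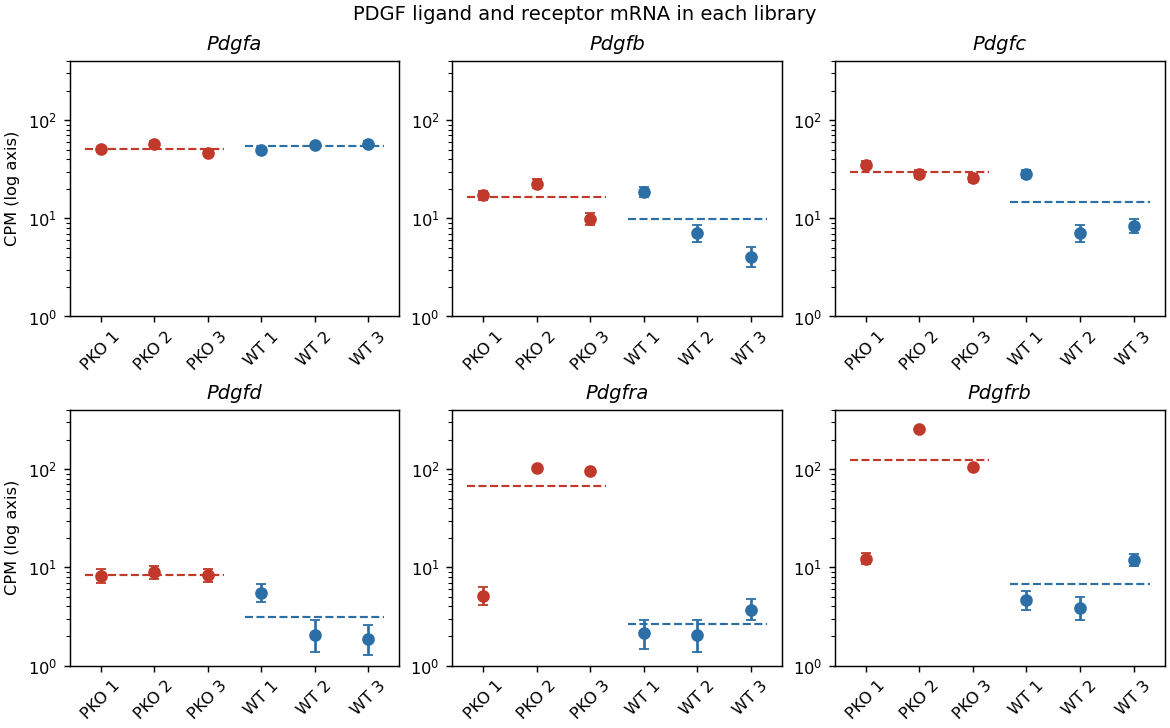
mRNA level of each PDGF gene (CPM, log axis) in the 3 PKO libraries (red) and the 3 WT libraries (blue), with exact Poisson 95% intervals as bars and group means as dashed lines. Pdgfra and Pdgfrb reach 102 and 258 CPM in PKO 2 and 95.3 and 104 CPM in PKO 3, while Pdgfa stays between 46.1 and 57.7 CPM in all 6 libraries.

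Pdgfa encodes the ligand of the alpha receptor that skeletal muscle and many epithelia make. On chromosome 5 (138976014 to 138997370, minus strand, GRCm38), it measured 50.5, 57.5 and 46.1 CPM in PKO 1 to PKO 3, against 49.1, 55.3 and 57.7 CPM in WT 1 to WT 3. The groups overlapped, and no library stood apart. The log2 fold change (PKO over WT) was -0.07 ± 0.13 (SE), with an edgeR adjusted p of 0.802, and without PKO 2 it was -0.15. In GENCODE M21 the antisense gene 6330403L08Rik overlaps exons of Pdgfa and had 2111 counts over the 6 libraries. Exons of Pdgfc and Pdgfra also have annotated genes on the opposite strand. No strand setting for the counting is stated, so reads of such overlapping genes cannot be told apart.

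Pdgfb, on chromosome 15 (79995900 to 80014808, minus strand), encodes the chain that binds both receptors and that endothelium uses to recruit pericytes. It measured 17.1, 22.6 and 9.90 CPM in PKO 1 to PKO 3, against 18.6, 7.01 and 4.05 CPM in WT 1 to WT 3. The groups overlapped: WT 1 lay above PKO 1 and PKO 3. Its log2 fold change was 0.74 ± 0.57 (SE; edgeR adjusted p = 0.529, DESeq2 adjusted p = 0.512). Without WT 1 it was 1.58 ± 0.42 (edgeR adjusted p = 0.0793), without PKO 2 it was 0.46, and without WT 3 it was 0.36.

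Pdgfc, on chromosome 3 (81036416 to 81214040, plus strand), encodes a CUB-domain ligand that acts mainly through the alpha receptor. It measured 35.3, 28.3 and 25.9 CPM in PKO 1 to PKO 3, against 28.2, 7.01 and 8.37 CPM in WT 1 to WT 3. The 3 PKO libraries and WT 1 were alike, and only WT 2 and WT 3 were low. Over all libraries the log2 fold change was 1.04 ± 0.52 (SE; edgeR adjusted p = 0.357, DESeq2 adjusted p = 0.224). Without WT 1, Pdgfc rose in PKO by 1.95 ± 0.21 on the log2 scale (edgeR adjusted p = 0.00821, higher in 3 of 3 PKO libraries), in a fit that called 3.55% of genes higher and 3.32% lower. WT 1 was the WT library nearest to PKO, so leaving it out could only widen the difference. Without WT 2 the value was 0.70 ± 0.49 (edgeR adjusted p = 0.698), and without WT 3 it was 0.75 ± 0.55 (edgeR adjusted p = 0.723).

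Pdgfd, on chromosome 9 (6168612 to 6378843, plus strand), encodes the other CUB-domain ligand, which acts mainly through the beta receptor. It measured 8.21, 8.88 and 8.31 CPM in PKO 1 to PKO 3, against 5.55, 2.03 and 1.86 CPM in WT 1 to WT 3. The PKO libraries hardly differed from each other, and WT 1 lay between them and the other WT libraries. The mean was 8.47 ± 0.36 CPM in PKO and 3.15 ± 2.08 CPM in WT (SD, n = 3 each), a 2.69-fold difference. Pdgfd rose with DESeq2 (log2 fold change 1.42 ± 0.45 SE, adjusted p = 0.0307) and did not pass with edgeR (1.43 ± 0.44, adjusted p = 0.210). Without WT 1 the edgeR value was 2.11 ± 0.24 (adjusted p = 0.00937). Without WT 2 it was 1.19 ± 0.48 (edgeR adjusted p = 0.546), and without WT 3 it was 1.15 ± 0.45 (edgeR adjusted p = 0.584).

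The upstream sequences of Pdgfc and Pdgfd are shown because their library profiles were the most alike of any pair of members, and that of Pdgfra because it had the largest fold change of the members. They are plus-strand sequence from the RefSeq table (GRCm38.p6), which had an entry for 4 of the 6 members. The Pdgfc and Pdgfd runs end just before the RefSeq gene, while the Pdgfra run precedes a start at 75152251 and lies inside the RefSeq gene, whose outermost start is 75151322. No run overlaps an exon of GENCODE M21. The Pdgfra run is chr5:75152001-75152250 (250 bases), the Pdgfc run chr3:81036166-81036415 (250 bases) and the Pdgfd run chr9:6168236-6168362 (127 bases). Capitals mark a match, on either strand, to the TATA box TATAAA, the CCAAT box (searched as CCAAT), the GC box GGGCGG, the AP-1 motif TGANTCA or the spaced palindrome TTCNNNGAA.
Pdgfra: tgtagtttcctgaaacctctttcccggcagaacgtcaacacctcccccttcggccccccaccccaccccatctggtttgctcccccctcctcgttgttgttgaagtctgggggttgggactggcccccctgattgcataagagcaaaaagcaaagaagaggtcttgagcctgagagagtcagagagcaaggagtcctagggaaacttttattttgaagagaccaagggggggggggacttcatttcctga
Pdgfc: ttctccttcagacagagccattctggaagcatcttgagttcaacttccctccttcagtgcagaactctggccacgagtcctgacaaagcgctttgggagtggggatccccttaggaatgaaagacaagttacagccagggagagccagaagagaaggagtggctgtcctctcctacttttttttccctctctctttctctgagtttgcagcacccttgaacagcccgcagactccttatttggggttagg
Pdgfd: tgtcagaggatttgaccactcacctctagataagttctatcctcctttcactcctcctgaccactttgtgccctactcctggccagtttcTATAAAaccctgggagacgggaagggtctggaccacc
The Pdgfd run held 1 match, a TATAAA that begins 37 bases before the RefSeq gene start. Among 32851 RefSeq windows of 250 bases upstream of a start, 12.4% held TATAAA, 33.8% CCAAT, 32.7% GGGCGG, 6.75% TGANTCA and 7.02% TTCNNNGAA. The Pdgfd run is shorter than these windows, so the shares are not directly comparable with it. The Pdgfra and Pdgfc runs held 0 matches.

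Pdgfra, on chromosome 5 (75152291 to 75198204, plus strand), was low in WT and in PKO 1 and high in the other 2 PKO libraries. Its raw counts were 96, 1799 and 1858 in PKO 1 to PKO 3, against 36, 31 and 68 in WT 1 to WT 3, or 5.12, 102 and 95.3 CPM against 2.13, 2.03 and 3.72 CPM. PKO 2 and PKO 3 were at 39.0 and 36.3 times the WT mean, whereas PKO 1 was at 1.95 times. The exact Poisson 95% intervals, which cover counting error only, were 4.14 to 6.25 CPM in PKO 1 and 2.89 to 4.72 CPM in WT 3, so these libraries overlapped in counting error. Pdgfra rose with DESeq2 (log2 fold change 4.68 ± 1.07 SE, adjusted p = 0.00115) and did not pass with edgeR (4.67 ± 1.04, adjusted p = 0.179). Without PKO 1 the edgeR value was 5.23 ± 0.28 (adjusted p = 0.00237), in a fit that called 4.54% of genes higher and 0.538% lower. Without WT 3 it was 5.01 (adjusted p = 0.566). In the authors' deposited table Pdgfra had a log2 fold change of 1.56 and an adjusted p of 0.0112, a smaller fold than the 25.8 between the group means of CPM.

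Pdgfrb, on chromosome 18 (61045150 to 61085061, plus strand), had the same pattern. Its raw counts were 231, 4539 and 2035 in PKO 1 to PKO 3, against 78, 59 and 218 in WT 1 to WT 3, or 12.3, 258 and 104 CPM against 4.61, 3.86 and 11.9 CPM. PKO 2 and PKO 3 were at 38.0 and 15.4 times the WT mean and PKO 1 at 1.81 times. PKO 1 was barely above WT 3, with exact Poisson 95% intervals of 10.8 to 14.0 CPM and 10.4 to 13.6 CPM. Pdgfrb rose with DESeq2 (log2 fold change 4.20 ± 1.12 SE, adjusted p = 0.00708) and did not pass with edgeR (4.19 ± 1.05, adjusted p = 0.190). Without PKO 1 the edgeR value was 4.73 ± 0.60 (adjusted p = 0.0124), and without PKO 2 it was 3.11 ± 0.92 (adjusted p = 0.403). In the authors' deposited table Pdgfrb had a log2 fold change of 1.35 and an adjusted p of 0.0336. Their table gave Pdgfd 1.13 (adjusted p = 0.0306) and the other 3 ligand genes adjusted p-values of 0.216 to 0.885.

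**Figure D2:**
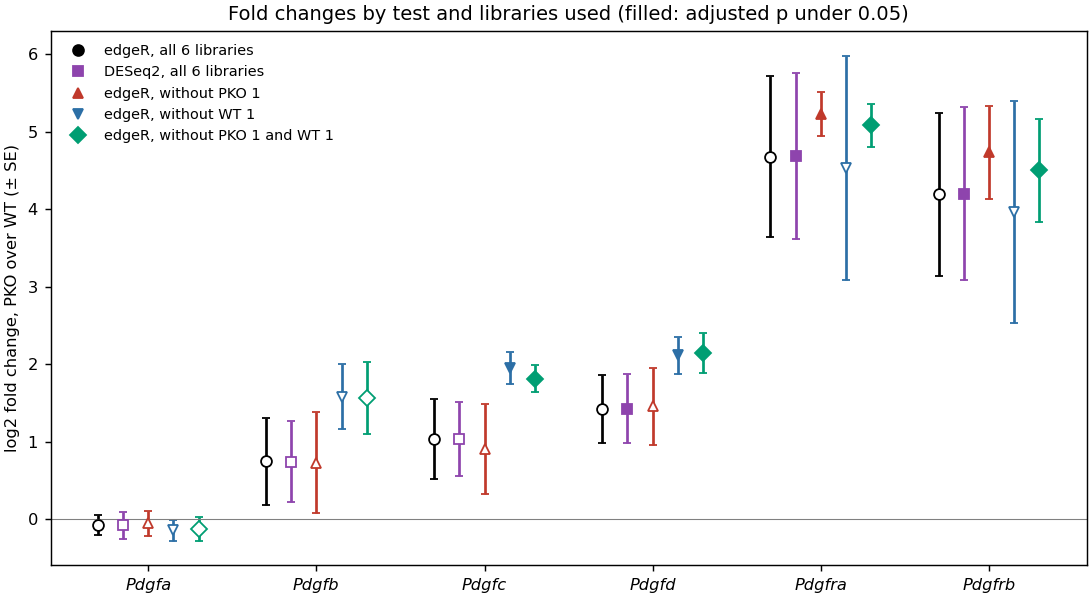
Log2 fold change (PKO over WT) with its SE for each member, from edgeR and DESeq2 on all 6 libraries and from edgeR without PKO 1, without WT 1 or without both. Filled symbols have an adjusted p under 0.05. With DESeq2 on all 6 libraries Pdgfra, Pdgfrb and Pdgfd pass. In edgeR the receptors pass where PKO 1 is left out, and Pdgfc and Pdgfd where WT 1 is left out. Pdgfa and Pdgfb pass in none of these fits.

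No member had an adjusted p under 0.05 in edgeR with both PKO 1 and WT 1 in the fit. For both receptors PKO 1 was the PKO library nearest to WT, so leaving it out could only widen the difference. The same held for WT 1, the WT library nearest to PKO, in Pdgfc and Pdgfd. Leaving out PKO 1 and WT 1 together gave 4 of 6 members an adjusted p under 0.05, in a fit that called 10.2% of all genes higher and 5.63% lower. In that fit Pdgfc was at 1.81 ± 0.18, Pdgfd at 2.14 ± 0.26, Pdgfra at 5.08 ± 0.28 and Pdgfrb at 4.50 ± 0.66 on the log2 scale.

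Stromal marker genes were highest in the same libraries as the receptors. Of 22 listed markers of mesenchymal stromal cells (neither receptor among them), 21 were in the table and 15 passed the filter on low counts. Of the 15, all had a log2 fold change above 0 (median 3.66), 11 rose with DESeq2, and 14 were highest in PKO 2 and PKO 3. That last pattern was found in 16.2% of all genes, and both receptors had it too. Over all genes 48.3% lay above 0 and 4.73% rose with DESeq2. EdgeR called 0 of the 15 with all libraries, 11 without PKO 1, 2 without WT 1 and 12 without both, a check added after the data were seen. Of all genes it called 0% with all libraries. It called 4.54% higher without PKO 1, 3.55% without WT 1 and 10.2% without both. The list summed to 1016, 3878 and 2714 CPM in PKO 1 to PKO 3, against 830, 651 and 704 CPM in WT 1 to WT 3. At 0 counts were 3, 0 and 1 of the markers in PKO 1 to PKO 3, against 5, 1 and 4 in WT 1 to WT 3. Gsn, Osr1, Prrx1 and Postn were tested and did not pass with DESeq2 (adjusted p = 0.0619, 0.0863, 0.801 and 0.327). Dpt, a matrix gene of fibroblasts, did not pass the filter and is not among the 15. It had 0, 49 and 141 counts in PKO 1 to PKO 3, against 0 counts in each WT library (DESeq2 adjusted p = 0.24). Ly6a, the surface antigen SCA-1, had 65, 258 and 1387 counts in PKO 1 to PKO 3, against 25, 9 and 4 counts in WT 1 to WT 3. The part of such cells in the receptor difference was not tested. In bulk RNA a change in the share of a cell type and a change in the RNA per cell cannot be told apart.

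The receptors were also set against the stromal markers within each library, where 3 against 3 libraries allow no p under 0.1. The log2 ratio of Pdgfra counts to the summed stromal counts was -7.63, -5.24 and -4.83 in PKO 1 to PKO 3, against -8.61, -8.33 and -7.56 in WT 1 to WT 3, a difference of 2.26 (exact two-sided permutation test, p = 0.2, 0.3 after Benjamini-Hochberg adjustment over 3 ratios). For Pdgfrb it was -6.37, -3.91 and -4.70 in PKO 1 to PKO 3, against -7.49, -7.40 and -5.88 in WT 1 to WT 3, a difference of 1.93 (exact two-sided permutation test, p = 0.2, adjusted 0.3). With the median of the markers' log2 CPM in place of their sum, to which Col3a1 and other abundant genes add most, the differences were -0.14 and -0.44 and so of the opposite sign (exact permutation p = 0.8 and 0.6). For both receptors PKO 1 lay below WT 3 in the ratio to the sum, and without PKO 1 the differences were 3.13 for Pdgfra and 2.62 for Pdgfrb.

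The ratio of the receptors to each other varied less than their levels. On the FPKM scale (fragments scaled to gene length and library depth, the authors' values) the log2 ratio of Pdgfra to Pdgfrb was -1.54, -1.61 and -0.41 in PKO 1 to PKO 3, against -1.39, -1.21 and -1.96 in WT 1 to WT 3. Pdgfrb was thus above Pdgfra in all 6 libraries, and PKO 3 had the most even ratio. The genotypes differed by 0.33 (exact two-sided permutation test, p = 0.6, adjusted 0.6), less than the SD of 0.68 among PKO libraries.

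**Figure D3:**
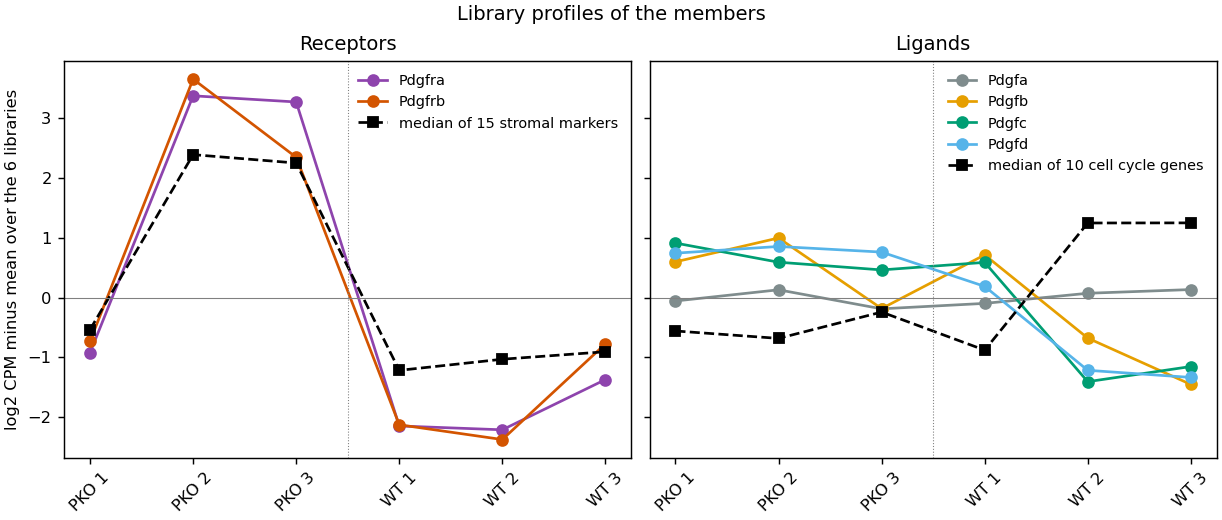
Log2 CPM of each member minus its own mean over the 6 libraries, for the receptors (left, with the median of 15 stromal markers) and the ligands (right, with the median of 10 cell cycle genes). The receptors and the stromal markers are high in PKO 2 and PKO 3, while Pdgfb, Pdgfc and Pdgfd are low in WT 2 and WT 3, where the cell cycle median is 1.25 above its mean.

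Ligands and receptors fell into separate library patterns. The root mean square difference between centred log2 CPM profiles over the 6 libraries was 0.26 for Pdgfc and Pdgfd, 0.47 for Pdgfb and Pdgfc, and 0.47 for Pdgfra and Pdgfrb, against 1.80 to 2.25 between these 3 ligand genes and the receptors. WT 2 and WT 3 were the lowest libraries for each of Pdgfb, Pdgfc and Pdgfd, a pattern of 20.0% of all genes tested. In WT 1 these genes were at 3.35, 3.67 and 2.85 times the mean of WT 2 and WT 3. The cell cycle genes given above ran the other way, with WT 2 and WT 3 highest and WT 1 lowest. The part of cell cycle state in the ligand difference was not tested.

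The genes with the profiles most like those of the members were found by the same measure among 12991 genes. For Pdgfra they were the chemokine genes Ccl2 (0.22) and Ccl7 (0.33), followed by Phactr1 (0.36). Ccl2 measured 28.9, 369 and 400 CPM in PKO 1 to PKO 3, against 11.1, 11 and 19.9 CPM in WT 1 to WT 3. For Pdgfrb they were Ccbe1 (0.29), which encodes a secreted protein of lymphatic growth, the chemokine gene Cxcl5 (0.37) and the sphingosine-1-phosphate receptor gene S1pr3 (0.39). For Pdgfc they were Palmd (0.14), Trim46 (0.16) and Slc41a3 (0.16), for Pdgfd Grin3a (0.12), Cxx1c (0.14) and Dach1 (0.14), and for Pdgfb Tmtc2 (0.22), Dnah10 (0.24) and Trp63 (0.26). The nearly flat profile of Pdgfa was closest to those of Arcn1 (0.03), Dpy19l4 (0.03) and Ccdc50 (0.04). This likeness is over 6 libraries only, and for all members but Pdgfa it follows which few of them are high or low.

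Per gene length, on the FPKM scale, Pdgfa was the most abundant member in 5 of 6 libraries. Its FPKM averaged 25.4 ± 2.75 in PKO and 25.7 ± 2.13 in WT (SD, n = 3 each). In PKO it was followed by Pdgfrb (23.6), Pdgfra (10.6), Pdgfc (8.62), Pdgfb (5.76) and Pdgfd (2.83), where all neighbours in that order overlapped between libraries except Pdgfb and Pdgfd. In WT it was followed by Pdgfc (4.04), Pdgfb (3.31), Pdgfrb (1.23), Pdgfd (1.01) and Pdgfra (0.39), where only Pdgfa with Pdgfc and Pdgfd with Pdgfra did not overlap. Pdgfra ranked last of the members in PKO 1 and in each WT library, and at rank 3 in PKO 2 and PKO 3.

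Summed over genes, ligand FPKM varied little and receptor FPKM greatly. The ligands summed to 43.2, 47.5 and 37.1 FPKM in PKO 1 to PKO 3, against 39.1, 31.3 and 31.7 FPKM in WT 1 to WT 3. Receptors summed to 3.06, 64.4 and 34.9 FPKM in PKO 1 to PKO 3, against 1.15, 1.00 and 2.71 FPKM in WT 1 to WT 3. The ligand to receptor ratio was therefore 14.1 in PKO 1, 0.74 in PKO 2 and 1.06 in PKO 3, and 34.1, 31.2 and 11.7 in WT 1 to WT 3. Pdgfa made up 56.9%, 59.9% and 62.5% of ligand FPKM in PKO 1 to PKO 3, against 59.6%, 84.1% and 86.5% in WT 1 to WT 3.

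**Figure D4:**
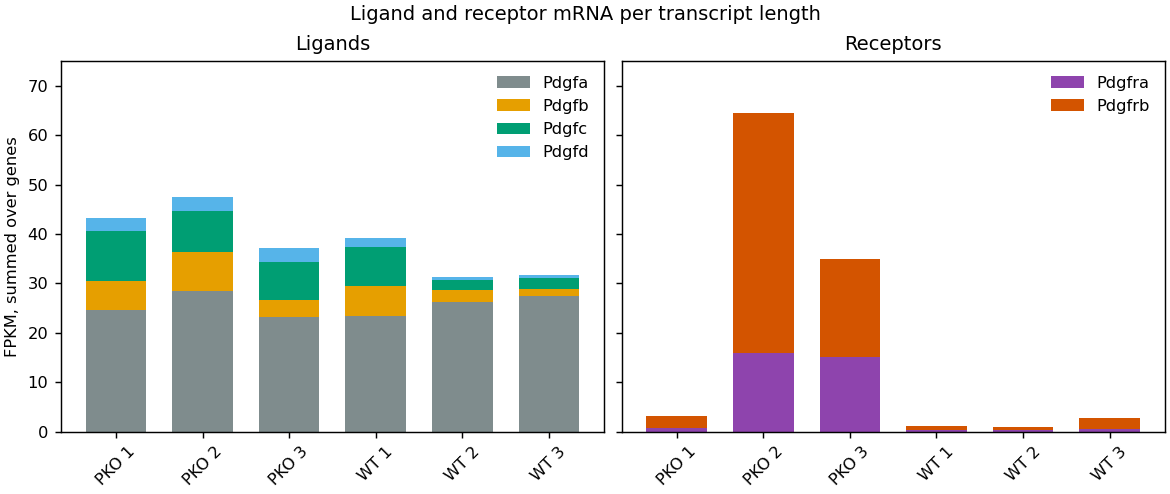
FPKM of the ligand genes (left) and receptor genes (right), stacked by gene, in the 3 PKO and 3 WT libraries. Ligand sums lie between 31.3 and 47.5 FPKM in all libraries, while receptor sums exceed 30 FPKM only in PKO 2 (64.4) and PKO 3 (34.9).

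Genes that bind, process or assist PDGF and its receptors had fold changes mostly above 0, and 8 of 14 were highest in PKO 2 and PKO 3. Of these 14 genes, all tested, 12 had a log2 fold change above 0 (list median 0.72, against -0.02 over all genes), 0 passed with edgeR, 6 rose with DESeq2 and 0 fell. Over all genes the shares were 48.3% above 0, 4.73% risen and 0.933% fallen with DESeq2, and 16.2% highest in PKO 2 and PKO 3. Plat, the tissue plasminogen activator that cleaves PDGF-C, measured 11.1, 73.0 and 31.5 CPM in PKO 1 to PKO 3, against 8.98, 2.29 and 4.54 CPM in WT 1 to WT 3. Lrp1, an endocytic receptor that associates with the beta receptor, measured 649, 1965 and 945 CPM in PKO 1 to PKO 3, against 513, 401 and 425 CPM in WT 1 to WT 3. All PKO libraries lay above all WT libraries for both. Cspg4, the NG2 proteoglycan of mural cells and progenitors that binds PDGF-A, was 2.80-fold higher (DESeq2 adjusted p = 0.00986). Dcn, decorin, a matrix proteoglycan that stromal cells secrete, measured 1.60, 68.4 and 41.2 CPM in PKO 1 to PKO 3, against 1.36, 0.85 and 2.35 CPM in WT 1 to WT 3, so PKO 1 lay below WT 3. The other DESeq2 calls were Itgb3, an integrin chain (DESeq2 log2 fold change 3.14 ± 1.02, adjusted p = 0.0402; edgeR adjusted p = 0.197), and Pdgfrl, a receptor-like gene without a kinase (DESeq2 log2 fold change 1.51 ± 0.48, adjusted p = 0.0339; edgeR adjusted p = 0.196), both named after their values were seen. Pdgfrl differed in being highest in PKO 1, at 5.76, 3.13 and 4.16 CPM in PKO 1 to PKO 3, against 2.42, 1.05 and 1.09 CPM in WT 1 to WT 3.

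The adaptors and enzymes that carry the receptor signal had a median fold change near that of all genes. Of 34 adaptor and enzyme genes, 19 had a log2 fold change above 0 and 15 below (median 0.02), against 48.3% above 0 over all genes. With edgeR, 0 passed. Shc1, an adaptor that links receptors to RAS, had a DESeq2 log2 fold change of 0.53 ± 0.18, the kinase gene Src of 0.54 ± 0.20 and Jak1 of 0.64 ± 0.24, each with all PKO libraries above all WT libraries and adjusted p-values of 0.0659, 0.0983 and 0.095.

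Genes that attenuate receptor signals likewise had a median near that of all genes (0.14), and 0 passed with edgeR. Of the 20, 11 had a log2 fold change above 0, against 48.3% of all genes. Socs3, an inhibitor of cytokine receptor signalling, was the only 1 of them to rise with DESeq2 (adjusted p = 0.00959), at 2.83, 21.3 and 11.4 CPM in PKO 1 to PKO 3, against 2.83, 2.36 and 2.79 CPM in WT 1 to WT 3. With DESeq2, 4.73% of all genes rose. Spred1, an inhibitor of RAS signalling, had a DESeq2 log2 fold change of 0.65 ± 0.25, and the phosphatase genes Ptprj and Ptpn2 of 0.84 ± 0.41 and -0.32 ± 0.16, with adjusted p-values of 0.103, 0.253 and 0.278.

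Of 22 immediate-early genes that serum and growth factors induce, 15 had a log2 fold change above 0 (median 0.27), 0 passed with edgeR, 5 rose with DESeq2 and 0 fell. Over all genes 48.3% lay above 0, and 4.73% rose and 0.933% fell with DESeq2. The largest difference was that of Ccl2, given above (DESeq2 log2 fold change 4.25 ± 0.98, adjusted p = 0.00127). Ptgs2, the inducible cyclooxygenase, measured 59.5, 357 and 246 CPM in PKO 1 to PKO 3, against 26.1, 13.0 and 15.3 CPM in WT 1 to WT 3. Ier3, a stress and growth factor response gene, measured 14.9, 81.7 and 76.8 CPM in PKO 1 to PKO 3, against 7.74, 4.98 and 7.66 CPM in WT 1 to WT 3. Both had all PKO libraries above all WT libraries and their highest values in PKO 2 and PKO 3. Junb, an AP-1 subunit, was more even, at 116, 99.9 and 115 CPM in PKO 1 to PKO 3, against 78.0, 78.8 and 84.5 CPM in WT 1 to WT 3 (DESeq2 adjusted p = 0.0404). The fifth call was Egr2, an immediate-early transcription factor named after its value was seen (DESeq2 log2 fold change 1.88 ± 0.60, adjusted p = 0.0349). Genes of this list are also induced by other stimuli and expressed by stromal cells. Of the 22, 9 were highest in PKO 2 and PKO 3 (16.2% of all genes), against 14 of 15 stromal markers. The part of other stimuli or of stromal cells was not tested.

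**Figure D5:**
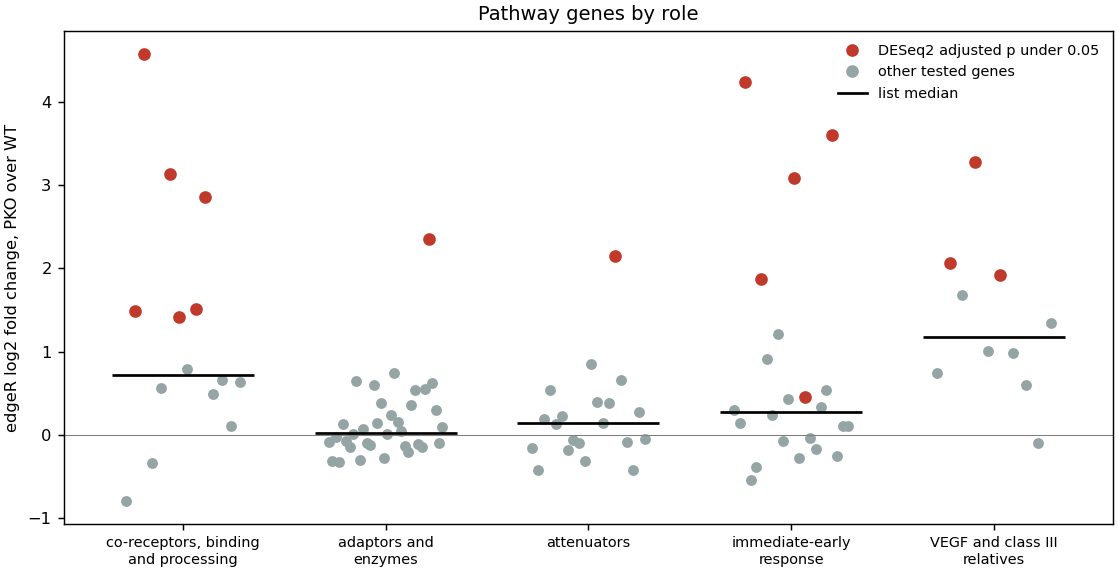
EdgeR log2 fold change (PKO over WT) of each tested gene in 5 lists of the PDGF pathway and its relatives, with red points for genes with a DESeq2 adjusted p under 0.05 and black lines for list medians. Adaptors and enzymes sit around 0 (median 0.02), while genes that bind or process PDGF have a median of 0.72.

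Some markers of other cell types were higher in PKO too and others were lower, and their part in the receptor difference was not tested. The genes named for passing DESeq2 in this paragraph were named after their values were seen. Of 12 pericyte and smooth muscle markers 8 passed the filter, of which Mcam and Tagln rose with DESeq2 (adjusted p = 0.0113 and 0.000726). Cnn1 and Ndufa4l2, below the filter, rose with DESeq2 too (adjusted p = 0.0412 and 0.0205). The edgeR log2 fold change was above 0 for 6 of the 8 and below 0 for 2, Notch3 (-0.86) and Abcc9 (-0.27). Tagln measured 60.2, 150.5 and 91.9 CPM in PKO 1 to PKO 3, against 29.1, 40.0 and 38.2 CPM in WT 1 to WT 3, and so was highest in PKO 2 and PKO 3, as the receptors were. Only 2 of the 8 tested pericyte and smooth muscle markers had that pattern, which was found in 16.2% of all genes. The list summed to 1938 to 2240 CPM in PKO and 1358 to 2182 CPM in WT, most of it from Acta2, which cultured myoblasts also express. The pericyte genes Kcnj8 and Higd1b had at most 2 counts in any library. Rgs5, also a pericyte gene, had 1986, 695 and 2945 counts in PKO 1 to PKO 3, against 710, 63 and 99 in WT 1 to WT 3. Its edgeR log2 fold change was 2.5 (edgeR adjusted p = 0.269, DESeq2 adjusted p = 0.182). Endothelial markers (9 of 12 in the table) summed to 26.4, 73.0 and 35.6 CPM in PKO 1 to PKO 3, against 19.8 to 20.4 CPM in WT. Eng alone gave 54.6 CPM of the sum in PKO 2. Eng, Cdh5 and Emcn rose with DESeq2 (adjusted p = 0.00743, 0.00954 and 0.0356). Of the 7 tested endothelial markers, 6 had an edgeR log2 fold change above 0 and 1 below, Vwf (-0.47). All PKO libraries lay below all WT libraries for Vwf. Leukocyte markers (11 of 12) summed to 20.0 to 31.6 CPM in PKO and 13.2 to 26.1 CPM in WT, and Ptprc, which encodes CD45, had 0, 12 and 14 counts in PKO 1 to PKO 3, against 0, 6 and 2 in WT 1 to WT 3. The macrophage gene Lyz2 rose with DESeq2 (adjusted p = 0.000162), with 97, 153 and 141 counts in PKO 1 to PKO 3, against 4, 3 and 29 in WT 1 to WT 3. Of the 5 tested leukocyte markers, 3 had an edgeR log2 fold change above 0 and 2 below, Laptm5 (-0.68) and Itgam (-0.48). Adipocyte markers (3 of 8 in the table, 1 tested) summed to at most 8.62 CPM in PKO and 2.72 CPM in WT, and Fabp4, below the filter, rose with DESeq2 (adjusted p = 0.00636). Schwann cell markers (8 of 8) summed to 6.61 to 12.9 CPM in PKO and 3.78 to 13.1 CPM in WT, and tendon cell markers (7 of 8), nearly all from Scx, to 125 to 136 CPM in PKO and 133 to 145 CPM in WT. Of 17 tested myogenic markers, all had a log2 fold change below 0 (median -0.27), and the integrin gene Itga7 fell with DESeq2 (-0.75, adjusted p = 0.0135). Over all genes 48.3% lay above 0, and with DESeq2 4.73% rose and 0.933% fell.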

How the data were processed

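Poly(A) RNA of 6 libraries (3 PKO, 3 WT, grouped by sample title) was sequenced in pairs of 150 bp. Per the series text and the submitters' processing notes, TopHat2 aligned the reads to GRCm38 (mm10) and HTSeq 0.6.1 gave gene counts. No strand setting or annotation version is stated. The deposited read counts are raw whole numbers and were used for all tests. The deposited FPKM values, computed by the authors from counts and a gene length, were used only to compare levels between genes. The deposited normalized signal (counts over one factor per library) was not used. The authors' deposited log2 fold changes and p-values, from DESeq2 or edgeR, were used only where the authors' table is named. Other sample columns: none.

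The main test was edgeR 4.0.16 in R 4.3.3 (filterByExpr, 14025 genes; TMM; a robust quasi-likelihood model with no term besides genotype; Benjamini-Hochberg adjusted p under 0.05 over all genes). SEs were derived from the fold change and F statistic. DESeq2 1.42.0 and limma-voom (limma 3.58.1) were alternatives. Log2 CPM used a prior count of 2. Single values were compared with exact two-sided permutation tests (scipy 1.17.1). The fitting scripts were tested on simulated data.

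The members and lists were chosen with earlier results of these data known; the cell cycle list was added after the counts were seen. Genes named were the members, up to 4 genes of each pathway list with the smallest edgeR p, up to 3 of each marker list with the highest mean CPM, and the 3 genes (mean of at least 1 CPM) closest in profile to each member; further names are marked as such or serve as defining markers. Normalization, filter, test, replicate block and left-out libraries were varied. Counting intervals cover counting error only. One gene of the adaptor list is not reported here.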

Additional observations from a re-analysis of the deposited data

How the results depend on the processing

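Direction was kept by each of the 6 members under all 15 alternatives, except that Pdgfa reached 0.00 without PKO 3 (-0.15 to 0.00 over single left-out libraries). Over single left-out libraries the log2 fold change ran from 0.36 to 1.58 for Pdgfb, 0.70 to 1.95 for Pdgfc, 1.15 to 2.11 for Pdgfd, 4.26 to 5.23 for Pdgfra and 3.11 to 4.87 for Pdgfrb, and adjusted p-values over all alternatives from 0.0779 to 0.859 for Pdgfb, 0.00407 to 0.723 for Pdgfc, 0.00649 to 0.584 for Pdgfd, 0.00115 to 0.566 for Pdgfra and 0.00708 to 0.566 for Pdgfrb. DESeq2 took Pdgfd (1.42), Pdgfra (4.68) and Pdgfrb (4.20) past the threshold. Leaving out PKO 1 and WT 1 together did so for Pdgfc (1.81), Pdgfd (2.14), Pdgfra (5.08) and Pdgfrb (4.50). Limma-voom called 0 genes and gave the receptors 3.83 and 3.50.

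Calls over all genes were 0 in edgeR, 917 with DESeq2 (766 higher, 151 lower), 2266 without PKO 1 and WT 1 (1461 higher, 805 lower), and 0 to 1000 with a single library left out: 1000 without WT 1, 737 without PKO 1 and 0 without each of the others. For the binding and processing list the calls were 6 with DESeq2, 8 without both libraries and 0 to 4 without one; for adaptors 1, 7 and 0 to 2; for attenuators 1, 3 and 0 to 2; for immediate-early genes 5, 9 and 0 to 4; for VEGF and class III relatives 3, 7 and 0 to 4.

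The receptor to stromal marker differences moved to -0.14 (Pdgfra) and -0.44 (Pdgfrb) with the marker median. With single libraries left out, the difference in the Pdgfra to Pdgfrb ratio ran from -0.06 to 0.54.

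The sample titles give equal replicate numbers in both groups but state no pairing. Deviations of same-numbered libraries from their group means correlated at 0.10, -0.03 and 0.13, against -0.21 to 0.12 for the other pairs. With so few libraries these values cannot decide whether equal numbers share a batch. With the replicate block, 1 gene was called (1 higher), no member was, and Pdgfra stood at 4.05 and Pdgfrb at 3.49. Why calls differ between tools and left-out libraries was not tested. Depth limits Pdgfra in WT, at 31 to 68 counts.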

Other observations

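Relatives of the PDGF system also had fold changes mostly above 0. These are the VEGF ligands, which share the cystine-knot fold of PDGF, their receptors, and the class III receptor tyrosine kinases with their ligands. Of 14 such genes 13 were in the table and 10 were tested. Of these, 9 had a log2 fold change above 0 (median 1.18), 8 were highest in PKO 2 and PKO 3, 0 passed with edgeR and 3 rose with DESeq2. Over all genes 48.3% lay above 0, 16.2% were highest in PKO 2 and PKO 3, and 4.73% rose with DESeq2. Flt4, the receptor of VEGF-C and VEGF-D, measured 1.44, 10.6 and 4.36 CPM in PKO 1 to PKO 3, against 0.47, 0.59 and 0.60 CPM in WT 1 to WT 3 (DESeq2 adjusted p = 0.000373). Figf, which encodes VEGF-D, measured 2.08, 4.61 and 6.98 CPM in PKO 1 to PKO 3, against 1.42, 0.85 and 0.98 CPM in WT 1 to WT 3 (DESeq2 adjusted p = 0.00559). For both, all PKO libraries lay above all WT libraries. Kitl, the ligand of the KIT receptor, rose with DESeq2 (adjusted p = 0.0122) and lay in PKO 1 below WT 2 and WT 3.

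Vegfc was lowest in WT 2 and WT 3, at 20.0, 18.5 and 18.0 CPM in PKO 1 to PKO 3, against 14.0, 3.40 and 4.76 CPM in WT 1 to WT 3. Its log2 fold change was 1.35 ± 0.49 (SE), with an edgeR adjusted p of 0.266 and a DESeq2 adjusted p of 0.0664. The same libraries were the lowest for Pdgfb, Pdgfc and Pdgfd.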
